A study of Mus musculus with 5 samples.

Results

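Lmo2, Myb, Tal1, Lyl1, Runx1, Gata2, Erg, Hoxa9, Meis1 and Pbx3, transcription factors of blood stem cells and of acute leukaemia, were picked by name from the deposited expression table. All 10 were found among its 34240 features. The table holds 5 libraries of BALB/c mice aged 10 to 12 months. Normal Gr1+Mac1+ myeloid cells sorted from bone marrow gave 3 libraries. Acute myeloid leukaemia (AML) cells that had been induced by the CNTRL-FGFR1 fusion and sorted as Mac+Gr1+B220+ gave 2 libraries, with bone marrow and spleen named as their tissue. Group, tissue and the B220 gate cannot be told apart in this design. Separate animals behind the libraries are not named in the labels, and a p-value here measures only how far these libraries vary.

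In blood stem cells LMO2 is a bridging protein without DNA binding of its own. It joins TAL1 or its paralog LYL1 to LDB1, to E proteins such as TCF3 and to a GATA factor, and this complex works together with RUNX1 and the ETS factors ERG and FLI1. HOXA9 binds DNA with MEIS1 and a PBX protein, a trio known from acute leukaemias in which stem cell programmes persist. MYB keeps progenitors dividing and is turned down as granulocytes mature.

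Levels are RPKM, reads scaled to exon length and to the mapped reads of a library, so levels of different genes can be set side by side. The unit was inferred from the values. A gene was tested if 2 or more libraries reached 1 RPKM, which kept 10166, by limma on log2(RPKM + 1) with a Benjamini-Hochberg adjusted p under 0.05 as the threshold. Log2 fold changes are on that scale and understate the change of low genes. All 8 neutrophil markers listed were tested, that is transcribed, and 4 (Itgam, Ly6g, Csf3r and Ltf) were called lower and none higher. The summed level, nearly all of it S100a8, S100a9, Ngp and Camp, was 186996 to 291665 RPKM in normal and 170809 to 237375 RPKM in AML libraries. Normal library 3 correlated less with the other normal libraries (lowest Pearson r across tested genes within a group, 0.924) than these did with each other (0.988), and r between groups ran from 0.760 to 0.857. Genes were deposited with 1 or 2 decimals. Among tested genes the log2 fold change was above 0 for 11.9% of those with 1 decimal and for 94.5% of those with 2. Tal1, Gata2, Pbx3 and Meis1 had 1 decimal, so a listed 0 there stands for anything under 0.05 RPKM.

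Lmo2 and Myb rose in AML cells, Pbx3 and Tal1 fell, and Lyl1, Runx1 and Erg missed the threshold (limma, Benjamini-Hochberg). Hoxa9, Meis1 and Gata2 stayed under the filter. Of the 7 tested factors 4 were thus called, where 31.0% of all tested genes were called, 19.3% as higher and 11.8% as lower. Lmo2, Myb, Lyl1, Runx1 and Erg reached 1 RPKM in every library. Pbx3 and Tal1 passed the filter through the normal libraries alone. Passing in this way favours genes that are lower in AML libraries, so the count supports nothing by itself. Without AML library 1 there was 1 higher and 1 lower factor, without AML library 2 there were 2 and 0, without normal library 2 there were 2 and 1, and without normal library 3 there were 3 and 2. AML and normal libraries did not overlap for 8 of the 10 factors, 3 above and 5 below. Of the 17466 features with any value 43.0% showed no overlap (25.4% above and 17.6% below). That set also holds features under the filter, while 7 of the 10 factors were tested, so the shares are not of like sets.

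**Figure D1:**
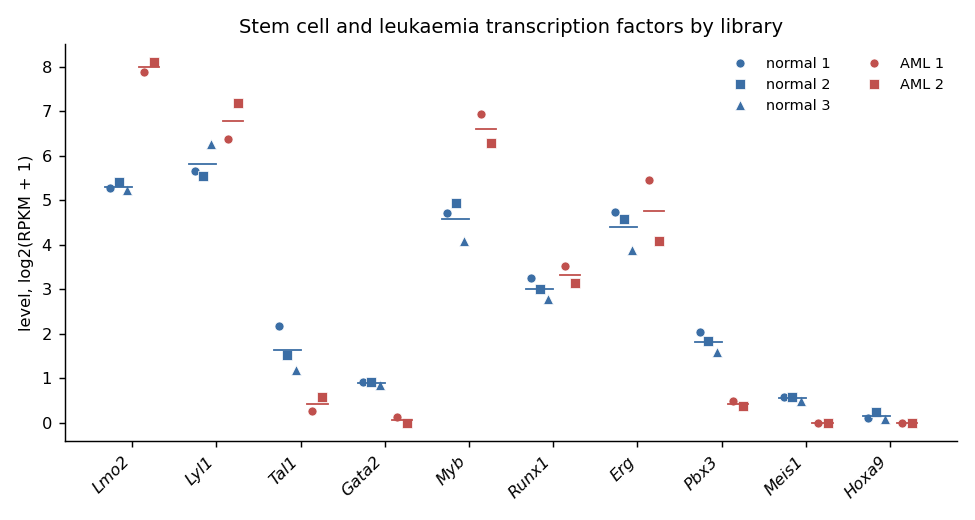
Level of each factor as log2(RPKM + 1) in normal libraries 1 to 3 (blue) and AML libraries 1 and 2 (red); horizontal lines are group means. Lmo2, Lyl1 and Myb lie higher in both AML libraries than in any normal library, Tal1, Gata2, Pbx3, Meis1 and Hoxa9 lie lower, and Runx1 and Erg overlap.

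The order of levels changed between the groups. In each normal library Lyl1 stood first and Lmo2 next, followed by Myb and Erg, whose order varied, and then Runx1. In both AML libraries Lmo2 stood first. Myb and Lyl1 came next and changed places between AML library 1 (120.6 and 82.3 RPKM) and AML library 2 (76.98 and 143.6 RPKM). Among all tested genes Lmo2 went from the 84.0 to 86.3 percentile in normal libraries to the 98.2 and 98.5 percentile in AML libraries, and Myb went from between 67.3 and 80.4 to 96.0 and 92.7.

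Lmo2 (ENSMUSG00000032698, mm9 chromosome 2, 103798143 to 103822035) was the most abundant of these factors in AML cells. It was listed at 38.1, 41.6 and 36.4 RPKM in normal libraries 1 to 3 and at 234 and 274 RPKM in AML libraries 1 and 2. Both AML libraries lay far above the narrow normal range. Means were 38.7 ± 2.67 RPKM (SD, n = 3) and 254 ± 28.2 RPKM (SD, n = 2), a ratio of 6.57, and the log2 fold change was 2.68 (SE 0.23; limma, Benjamini-Hochberg adjusted p = 0.00052). It passed in every one of the 13 alternative fits, with adjusted p up to 0.013.

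Lmo1 and Lmo4, the other LIM-only genes examined, did not follow Lmo2. Lmo1, known as an oncogene of T cell leukaemia and otherwise of nervous tissue, was listed at 9.8, 12.6 and 19 RPKM in normal libraries and at 0.2 and 0.1 RPKM in AML libraries. It was lower 92-fold by the means (log2 fold change -3.64, SE 0.30; limma, Benjamini-Hochberg adjusted p = 0.0005), but passed the filter through the normal libraries alone, so its call supports nothing by itself. Lmo4, the more abundant of these paralogs in normal cells, stood at 134 RPKM there and at 98.4 RPKM in AML cells. It did not pass (limma, Benjamini-Hochberg adjusted p = 0.20). Lmo2 thus made up 23.2%, 21.6% and 18.0% of the summed level of Lmo1, Lmo2 and Lmo4 in normal libraries, and 71.2% and 72.8% in AML libraries. These shares are a description, chosen after the values were seen.

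**Figure D2:**
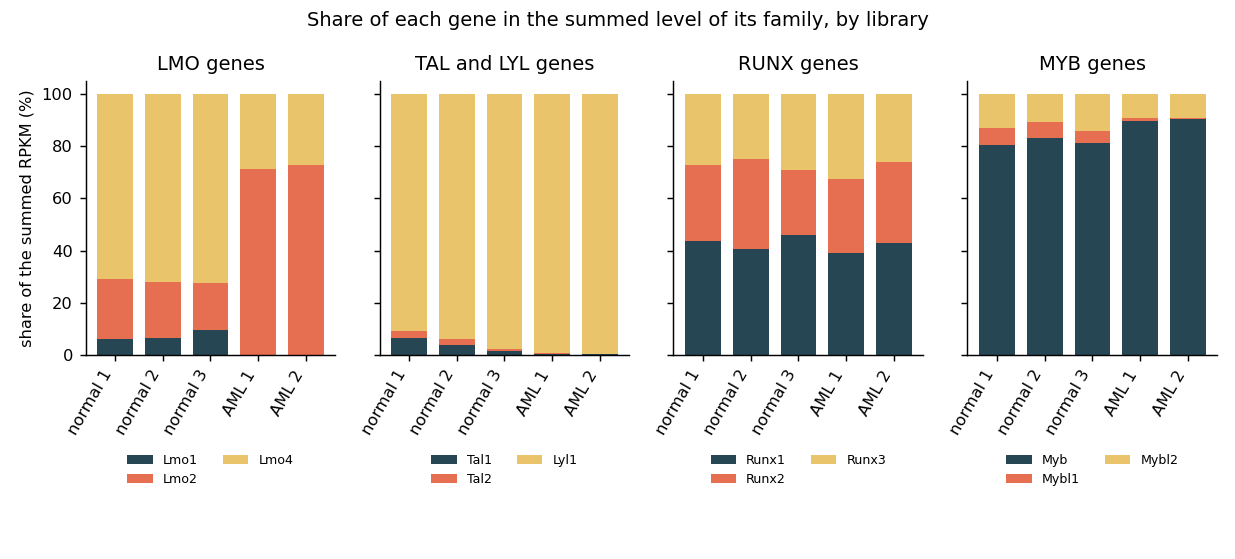
Share of each gene in the summed RPKM of the genes drawn for its family, in percent, for every library. Lmo4 holds 70.9% to 72.6% of the LMO sum in normal libraries and Lmo2 71.2% and 72.8% in AML libraries, Lyl1 holds over 90.8% of the TAL and LYL sum throughout, and Runx1 holds 39.0% to 46.2% of the RUNX sum.

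Tal1 (ENSMUSG00000028717, mm9 chromosome 4, 114729031 to 114744360) and Lyl1 (ENSMUSG00000034041, mm9 chromosome 8, 87225356 to 87228614) encode related basic helix-loop-helix proteins. The 250 bases upstream of a start of each are shown because these paralogs lay on opposite sides of the normal range in AML libraries (Tal1 below it and called, Lyl1 above it and not called), with those of Myb as a factor that rose; sequences are from RefSeq, build GRCm38.p6, for which 8 of the 10 factors matched. Lmo2 and Pbx3 were not matched. Capitals mark any match, on either strand, to 1 of 6 short motifs. GATA factors were searched by the letters AGATAA, while ETS factors were searched by AGGAAG and RUNX factors by TGTGGT. For MYB the letters were TAACNG. E-boxes of helix-loop-helix proteins were searched as CAGCTG and also as CAGATG.
Tal1 (chr4:115056176-115056425, plus strand): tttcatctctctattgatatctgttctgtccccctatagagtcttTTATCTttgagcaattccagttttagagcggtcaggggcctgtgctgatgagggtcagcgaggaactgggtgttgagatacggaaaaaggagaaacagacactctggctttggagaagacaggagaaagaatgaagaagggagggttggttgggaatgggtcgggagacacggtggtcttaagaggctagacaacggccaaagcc
Lyl1 (chr8:84701207-84701456, plus strand): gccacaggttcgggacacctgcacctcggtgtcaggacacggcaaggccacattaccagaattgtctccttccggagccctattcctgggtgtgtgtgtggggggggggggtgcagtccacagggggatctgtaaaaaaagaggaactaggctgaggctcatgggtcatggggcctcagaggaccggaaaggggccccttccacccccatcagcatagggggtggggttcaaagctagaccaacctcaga
Myb (chr10:21160985-21161234, minus strand): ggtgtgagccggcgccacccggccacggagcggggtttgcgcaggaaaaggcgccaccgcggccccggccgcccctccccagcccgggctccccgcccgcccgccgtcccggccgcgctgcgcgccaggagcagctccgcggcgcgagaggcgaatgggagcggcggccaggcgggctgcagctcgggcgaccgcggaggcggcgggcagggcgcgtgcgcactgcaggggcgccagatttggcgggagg
The Tal1 window, at the first of 2 listed starts, held 1 match, to the GATA letters on the minus strand. The other windows held none, nor did that of the second Tal1 start. Among 32851 start windows of the same length, 9.99% held the GATA letters, 29.5% the ETS, 14% the RUNX and 19.8% the MYB letters, and 13% and 14.4% the E-boxes. The Myb window was the richest in G and C (81.2%, with 40 CG pairs, against 48.8% and 6 for Tal1 and 60% and 5 for Lyl1).

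Tal1 was listed at 3.5, 1.9 and 1.3 RPKM in normal and at 0.2 and 0.5 RPKM in AML libraries. Every normal value lay above both AML values, and the normal values varied by more than 2-fold among themselves. Its fall of 6.38-fold in mean RPKM gave a log2 fold change of -1.21 (SE 0.31; limma, Benjamini-Hochberg adjusted p = 0.025). The call was lost without normal library 2 (adjusted p = 0.06), AML library 1 (0.14) or AML library 2 (0.11), and with no filter on low values (0.058).

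Erythroid cells are known to carry TAL1, and the summed level of 8 erythroid markers, mostly Hba-a1, ranked the normal libraries as Tal1 did. Pbx3, Runx1 and Erg ranked them in the same order, so that order was not particular to Tal1. Among the markers the low Epor (0.8, 0.5 and 0.6 RPKM) did not follow it. The sum was 1534, 976 and 102 RPKM in normal libraries 1 to 3 and 118 and 129 RPKM in AML libraries. None of the 7 tested markers was called. The part of erythroid RNA in the fall of Tal1 was not tested further, since Tal1 was under the filter without normal libraries 1 and 2. In these bulk libraries fewer cells of a type and less RNA per cell cannot be told apart.

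**Figure D3:**
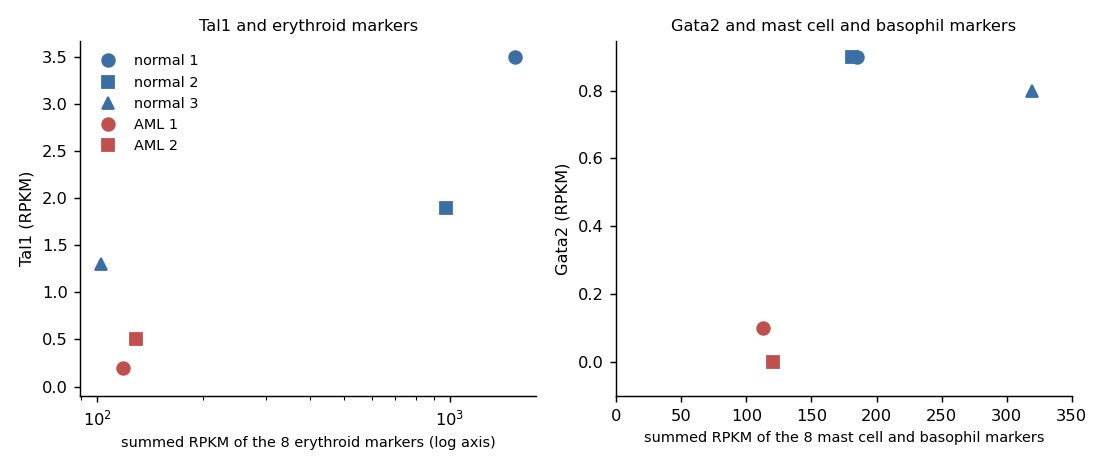
Left, Tal1 (RPKM) against the summed RPKM of 8 erythroid markers on a log axis; right, Gata2 (RPKM) against the summed RPKM of 8 mast cell and basophil markers, each point a library. Normal library 3 and both AML libraries have erythroid sums of 102 to 129 RPKM, with Tal1 at 1.3 RPKM in the former and at 0.2 and 0.5 RPKM in the latter.

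Lyl1 was listed at 49.5, 45.6 and 76.4 RPKM in normal and at 82.3 and 143.6 RPKM in AML libraries. The groups did not overlap, but AML library 1 lay only just above normal library 3. The difference of 1.98-fold (57.1 ± 16.8 against 113 ± 43.4 RPKM, SD) did not pass, with a log2 fold change of 0.95 (SE 0.35; limma, Benjamini-Hochberg adjusted p = 0.078). It passed without normal library 3 (log2 fold change 1.18, adjusted p = 0.013). Per unit of length Lyl1 exceeded Tal1 by 14.1, 24.0 and 58.7 times in normal libraries and by 411 and 287 times in AML libraries. Tal2, the third gene of this family, was at 0.6 to 1.5 RPKM in normal and at 0.4 and 0.2 RPKM in AML libraries and did not pass (limma, Benjamini-Hochberg adjusted p = 0.074).

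Gata2 (ENSMUSG00000015053, mm9 chromosome 6, 88143885 to 88157024), a zinc finger factor needed by stem cells and mast cells, was near 0. It was listed at 0.9, 0.9 and 0.8 RPKM in normal and at 0.1 and 0 RPKM in AML libraries. All 3 normal values lay above both AML values, yet none reached the filter. Fitted with no filter on low values, its log2 fold change was -0.83 (SE 0.11; limma, Benjamini-Hochberg adjusted p = 0.01). In such a fit 3 of the 10 factors were called lower, namely Pbx3, Meis1 and Gata2, where 16.4% of all features with any value were called and 6.16% as lower. Gata1, its erythroid and megakaryocytic relative, had 1.87 RPKM in normal and 1.70 RPKM in AML cells and did not pass (limma, Benjamini-Hochberg adjusted p = 0.92), and Gata3 was listed at 0 or 0.1 RPKM in every library.

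Of 8 mast cell and basophil markers 4 were tested and 1 was called, and their summed level was 181 to 319 RPKM in normal and 113 and 121 RPKM in AML libraries. The called gene was Prss34, a basophil protease, at 11.8, 15 and 11.4 RPKM in normal and at 0.7 and 0.8 RPKM in AML libraries. It passed the filter through the normal libraries alone. Mcpt8, another basophil protease, was at 6.01 to 13.2 RPKM in normal and at 12.1 and 30.4 RPKM in AML libraries and was not called. Most of the sum was Hdc, histidine decarboxylase, at 144 to 299 RPKM in normal libraries. The mast cell proteases Tpsb2 and Cma1 were at or under 0.1 RPKM everywhere. Cpa3, a further protease of this list, was present in every library. It was at 3.6, 6.4 and 2.1 RPKM in normal and at 1.9 and 2.1 RPKM in AML libraries and was not called. The part of these cells in the level of Gata2 was not tested.

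Among 14 further partners and paralogs of this complex 11 were tested, of which 2 rose, 1 fell and 8 were not called. The median log2 fold change of the 11 was 0.02, beside 0.12 over all tested genes. Tcf3, the E protein that pairs with TAL1 and LYL1, rose, with 10.4 ± 0.645 RPKM in normal and 22.5 ± 2.66 RPKM in AML cells (SD; limma, Benjamini-Hochberg adjusted p = 0.012). Ssbp3, which stabilises LDB1, rose from 7.82 ± 0.91 to 18.9 ± 1.84 RPKM (SD; limma, Benjamini-Hochberg adjusted p = 0.0088). The gene that fell was Lmo1, with the limit given above. Both rises were lost without AML library 2 (adjusted p = 0.10 for Tcf3 and 0.082 for Ssbp3), and that of Tcf3 also without normal library 2 (0.066).

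Ldb1, the scaffold that LMO2 binds, was at 24.9, 26.4 and 29.8 RPKM in normal and at 36.5 and 34.6 RPKM in AML libraries, a log2 fold change of 0.39 that did not pass. Lmo2 thus stood at 1.53, 1.58 and 1.22 times the level of Ldb1 in normal libraries and at 6.41 and 7.93 times in AML libraries. These ratios of transcript levels say nothing of protein amounts. The E proteins Tcf4 and Tcf12, the corepressor Cbfa2t3 and Ssbp2 were not called, and Zfpm1, Gfi1b and Gata3 were under the filter.

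Runx1 and Erg overlapped between the groups and were not called. Runx1 (ENSMUSG00000022952, mm9 chromosome 16, 92601712 to 92826311) encodes a DNA-binding subunit of core-binding factor. It was at 8.61, 7.01 and 5.85 RPKM in normal and at 10.5 and 7.88 RPKM in AML libraries. AML library 2 fell inside the normal range. The log2 fold change was 0.32 (SE 0.25; limma, Benjamini-Hochberg adjusted p = 0.36), and no alternative fit called it. Its paralogs Runx2 (4.93 and 6.67 RPKM in normal and AML cells) and Runx3 (4.45 and 6.74 RPKM) were not called either.

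Cbfb, the non-DNA-binding subunit that RUNX proteins share, fell, with 45.7 ± 5.94 RPKM in normal and 22.3 ± 3.04 RPKM in AML cells (SD). Its log2 fold change was -1.0 (SE 0.24; limma, Benjamini-Hochberg adjusted p = 0.02), and the call was lost without normal library 1, normal library 2, AML library 1 or AML library 2 (adjusted p from 0.064 to 0.14). Runx1 had 0.185, 0.137 and 0.148 times the level of Cbfb in normal libraries and 0.428 and 0.392 times in AML libraries. The transcript of the partner thus exceeded that of Runx1 in every library.

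Erg (ENSMUSG00000040732, mm9 chromosome 16, 95580776 to 95808200), an ETS factor of stem cells, endothelium and megakaryocytes, differed between the AML libraries. It was at 25.6, 22.9 and 13.8 RPKM in normal and at 43.0 and 15.9 RPKM in AML libraries. AML library 1 was the highest of all and AML library 2 lay within the normal range. The log2 fold change of 0.37 (SE 0.45; limma, Benjamini-Hochberg adjusted p = 0.56) turned to -0.32 without AML library 1. Fli1, the closest paralog of Erg, was more even, at 54.9, 56.9 and 42.0 RPKM in normal and 61.7 and 51.6 RPKM in AML libraries, with a log2 fold change of 0.15 (0.00 or below only under quantile normalization, at -0.0084). All 5 endothelial markers were under 1 RPKM, with sums of 0.12 to 0.58 RPKM in normal libraries and 0 in AML libraries, so the defining genes of that cell type were at or near 0. Megakaryocyte markers summed to 5.54 to 14.1 RPKM in normal and to 4.1 and 6.85 RPKM in AML libraries, and 1 of 5 tested, Gp9, was called, as higher; it passed the filter through the AML libraries alone.

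Of 12 listed partners and paralogs of Runx1 and Erg 11 were tested, none rose and 2 fell, with a median log2 fold change of 0.01. Besides Cbfb this was Ets2, an ETS factor downstream of MAP kinase signalling, at 15, 37.3 and 13.3 RPKM in normal and at 6.6 and 3.8 RPKM in AML libraries (limma, Benjamini-Hochberg adjusted p = 0.028). Normal library 2 stood apart for Ets2. The call was lost without AML library 1 (0.072) or AML library 2 (0.20) and with no filter on low values (0.069). Spi1, listed as Sfpi1, the ETS factor of myeloid fate known as PU.1, was the most abundant of this list, at 229 to 319 RPKM in normal and at 212 and 169 RPKM in AML libraries, and was not called. Without normal library 3 this list had 4 lower genes, and without AML library 2 it had 0.

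Myb (ENSMUSG00000019982, mm9 chromosome 10, 20844736 to 20880790) rose in AML cells, to a different height in each library. It was listed at 25.1, 29.9 and 16.1 RPKM in normal and at 120.6 and 76.98 RPKM in AML libraries. The lowest AML value was more than 2-fold above the highest normal value, and AML library 1 exceeded AML library 2. Means of 23.7 ± 7.0 RPKM (SD, n = 3) and 98.8 ± 30.8 RPKM (SD, n = 2) differed 4.17-fold, with a log2 fold change of 2.02 (SE 0.34; limma, Benjamini-Hochberg adjusted p = 0.0062). Without AML library 1 the call was narrowly lost (log2 fold change 1.70, adjusted p = 0.051).

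Mybl2, the MYB paralog tied to the cell cycle, rose with it at a lower level. It was at 4.04, 3.86 and 2.80 RPKM in normal and at 12.6 and 7.76 RPKM in AML libraries, a log2 fold change of 1.27 (SE 0.28; limma, Benjamini-Hochberg adjusted p = 0.015). As for Myb, AML library 1 was the higher, and the call was lost without AML library 1 (0.088) or normal library 2 (0.052). Of the 5 listed paralogs and cofactors 4 were tested, and Mybl2 was the gene called. The median log2 fold change of the 4 was -0.46, beside 0.12 over all tested genes. Crebbp, a histone acetyltransferase that MYB recruits, was at 19.2, 10.6 and 6.9 RPKM in normal and at 5.6 and 1.8 RPKM in AML libraries and did not pass (limma, Benjamini-Hochberg adjusted p = 0.057). Its relative Ep300 overlapped between groups, at 25.7 to 45.8 and at 33.6 and 16.8 RPKM.

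Hoxa9 (ENSMUSG00000038227, mm9 chromosome 6, 52173099 to 52181088) and Meis1 (ENSMUSG00000020160, mm9 chromosome 11, 18780433 to 18918961) were at or near 0. Hoxa9 was listed at 0.08, 0.18 and 0.07 RPKM in normal libraries and at 0 in both AML libraries, with 2 decimals. Low values of genes with a single exon came closest to whole read numbers at a depth of 33250000 reads for normal library 1 (72.0% of 218 values within rounding, 29.2% by chance) and at 35750000 for AML library 1 (56.0% of 166, 24.2% by chance), out of many depths tried. At these depths and an exon length of 3492 bases, Hoxa9 had about 9.3 reads in normal library 1, and the listed 0 in AML library 1 stands for under 0.6 reads. Depths estimated in the same way gave about 48.4 and 12.5 Hoxa9 reads in normal libraries 2 and 3. The listed 0 in AML library 2 stands for under 0.9 reads. Other HOXA genes were as low: Hoxa7 and Hoxa10 reached at most 0.05 and 0.07 RPKM in normal libraries and were 0 in AML libraries, and Hoxa5 was 0 throughout.

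Meis1 was listed at 0.5, 0.5 and 0.4 RPKM in normal libraries and at 0 in both AML libraries. With its 1 decimal and 7394 exon bases, a listed 0 allows up to about 13.2 reads in AML library 1, against about 122.9 reads in normal library 1. The AML cells thus had less Meis1 than the normal libraries, within this rounding, but a complete lack cannot be read from the table. Fitted with no filter, Meis1 gave a log2 fold change of -0.55 (SE 0.08; limma, Benjamini-Hochberg adjusted p = 0.014) and Hoxa9 -0.15 (SE 0.05; adjusted p = 0.092). For a single gene the exact two-sided permutation test over 3 against 2 libraries gave p = 0.2, the smallest value this design allows, for all of the factors but Runx1 (0.4) and Erg (0.6). Meis2 stayed at or under 0.04 RPKM in every library.

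Pbx3 (ENSMUSG00000038718, mm9 chromosome 2, 34026977 to 34228660), the PBX partner of HOXA9 in leukaemia, fell. It was at 3.1, 2.6 and 2.0 RPKM in normal and at 0.4 and 0.3 RPKM in AML libraries. The groups were well apart, and both AML values lay under 1 RPKM. The mean was 7.33-fold lower, with a log2 fold change of -1.39 (SE 0.21; limma, Benjamini-Hochberg adjusted p = 0.004), and the call was lost without AML library 2 (adjusted p = 0.058). Pbx2, which is widely transcribed, was at 47.3 to 78.7 RPKM in normal and at 50.2 and 71.7 RPKM in AML libraries. Its log2 fold change of 0.08 did not pass and changed sign in 6 of 13 alternative fits.

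Of the 16 partners and neighbours of Hoxa9, Meis1 and Pbx3 reported here, 8 were tested and 1 was called, with a median log2 fold change of 0.06. The gene that rose was Hoxb4, a homeobox gene known to expand stem cells. Hoxb4 (mm9 chromosome 11, 96177998 to 96182952) was at 1.78, 1.80 and 3.87 RPKM in normal and at 15.6 and 33.4 RPKM in AML libraries. The mean was 9.86-fold higher in AML cells (log2 fold change 2.83, SE 0.40; limma, Benjamini-Hochberg adjusted p = 0.0033), and the gene passed in all 13 alternative fits, with adjusted p up to 0.036. Hoxb8 was at or under 0.02 RPKM in every library. The cofactors Men1, Psip1, Dot1l and Kmt2a (listed as Mll1), through which MLL fusions act on HOX genes, were all transcribed, at 5.7 to 10.2 RPKM in normal and 9.0 and 5.7 RPKM in AML libraries for Mll1, and none was called.

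**Figure D4:**
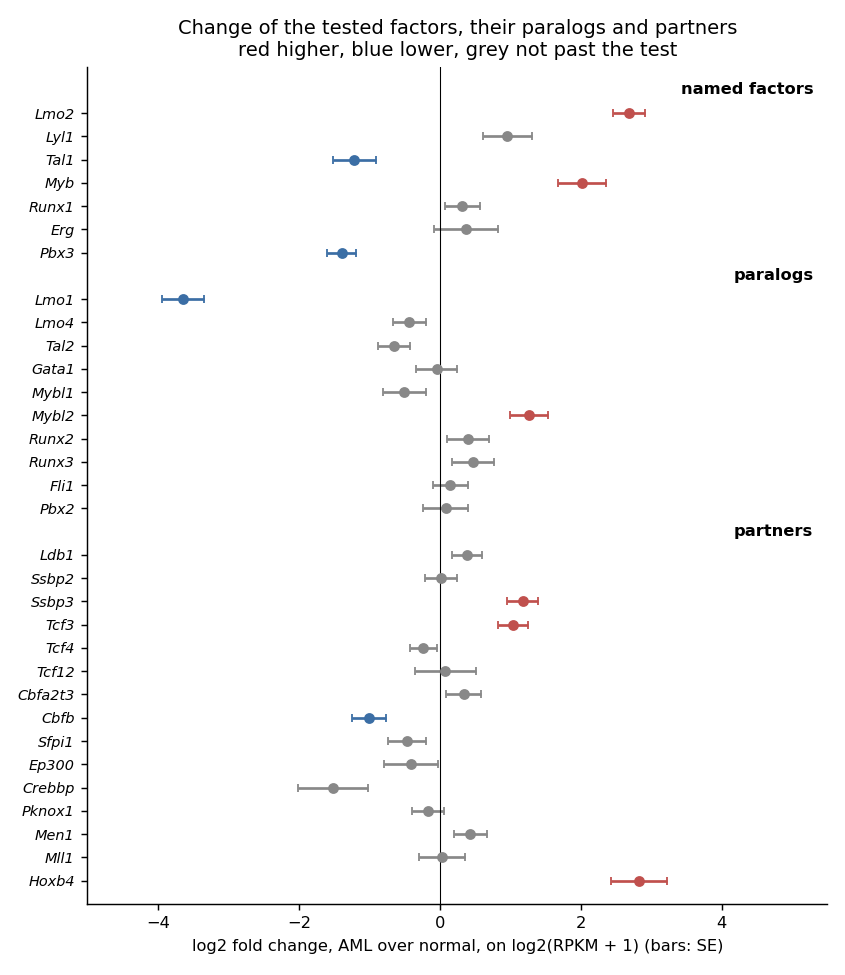
Log2 fold change (AML over normal, on log2(RPKM + 1)) with its SE for the tested factors, their paralogs and some of their partners, without the other stem cell regulators (such as Gfi1, at 3.40) and the targets; red and blue mark genes called higher and lower at an adjusted p under 0.05 and grey those that were not. Among the genes drawn, Lmo1 (-3.64) lies farthest to the left and Hoxb4 (2.83) and Lmo2 (2.68) farthest to the right.

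Of 12 other transcription regulators of stem cells 7 were tested and 2 rose, Gfi1 and Bmi1, with a median log2 fold change of -0.17. Gfi1, a repressor of granulocyte progenitors, went from 15.2 ± 1.88 to 172 ± 41.1 RPKM (SD). Bmi1, a Polycomb protein needed for self-renewal, went from 3.40 ± 0.563 to 6.47 ± 0.361 RPKM (SD; limma, Benjamini-Hochberg adjusted p = 0.037), a call lost in 7 of 13 alternative fits, among them those without any one of 4 libraries (all but normal library 3), under upper quartile scaling and with no filter. Ikzf1, the lymphoid and stem cell factor Ikaros, and Nfe2, a megakaryocyte factor, were not called and had 74.6 to 109.5 and 133 to 183 RPKM over all libraries. Mecom was 0 in every library, and Prdm16, Ikzf2, Mycn and Sox4 were under 1 RPKM in each.

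Among 12 genes known as targets of these factors 11 were tested, 7 rose and 2 fell, with a median log2 fold change of 1.88 beside 0.12 over all tested genes. The list was drawn up with earlier results of these data known, so its direction is no independent evidence. Flt3 (log2 fold change 6.02), Elane (5.95), Mpo (4.19), Kit, Myc, Cebpa and Cdk6 rose, and Csf1r (-3.16), a target of RUNX1, and Cd34 were called lower. Kit, a stem and progenitor surface gene, was at 4.0, 3.01 and 0.72 RPKM in normal and at 26.0 and 13.6 RPKM in AML libraries. Cd34, another, was at 1.0, 1.4 and 0.3 RPKM and listed at 0 in both AML libraries. It passed the filter through normal libraries 1 and 2 alone, and its call was lost with no filter (limma, Benjamini-Hochberg adjusted p = 0.085). The calls of Cd34 and Cdk6 were close to the threshold (limma, Benjamini-Hochberg adjusted p = 0.047 and 0.046). With no filter the call of Cdk6 was lost too (limma, Benjamini-Hochberg adjusted p = 0.11). Procr and Slamf1, further genes of stem cells, were under 1 RPKM everywhere. Ly6a, also a stem and progenitor surface gene, was at 4.53, 4.94 and 3.57 RPKM in normal and at 7.89 and 5.16 RPKM in AML libraries. It was not called (limma, Benjamini-Hochberg adjusted p = 0.20).

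Markers of other cells differed between the groups beside these results. Of 8 monocyte and macrophage markers 6 were lower (1 of them, Cx3cr1, tested through the normal libraries alone) and none higher, with sums of 352 to 596 RPKM in normal and 41.0 and 42.1 RPKM in AML libraries. Within the normal group the sum was lowest in library 3, as were the levels of all the factors but Lyl1. Of 6 plasmacytoid dendritic cell markers 5 were tested and 3 were lower (sums of 25.3 to 32.4 against 13.5 and 14.8 RPKM), all 3 having passed the filter through the normal libraries alone. Of 7 T cell markers 4 were tested, 3 higher and 1 lower. Cd3e (0.19 to 0.56 against 233 and 205 RPKM), Cd3g and Tcf7 were the higher ones, Cd3d was lower (38.4 to 45.5 against 16.5 and 17.2 RPKM), and Lck, Cd2 and Cd4 were under 1 RPKM in every library. Cd3e and Tcf7 passed the filter through the AML libraries alone. No B cell marker was called, with sums of 10.9 to 16.9 and of 10.1 and 12.2 RPKM. The part of these cells in the levels of the factors was not tested. Without normal library 3, which stood apart, more partners and targets were lower: 1 for the HOX trio, 2 for the LMO2 and TAL1 complex, 4 for RUNX and ETS, 2 for MYB, 2 among other stem cell regulators and 4 among targets.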

How the data were processed

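Per the labels' protocols, total RNA of sorted cells went into Illumina TruSeq libraries. The authors deposited 1 table with a column per library, matched to samples by title. Its values are taken as RPKM made by the authors, a unit inferred from values times exon length, which sum to between 1059380 and 1124790 per library. Per the submitters' processing notes the genome build was mm9; for the aligner, counter and annotation: not given in the sources used here.

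Genes reaching 1 RPKM in 2 or more libraries were compared on log2(RPKM + 1) with limma 3.58.1 in R 4.3.3 (variance trend, robust, two-sided, Benjamini-Hochberg, threshold 0.05). Means, SDs and folds are of RPKM. The procedure was tested on simulated data. Alternatives were upper quartile scaling, quantile normalization, no filter, 5 RPKM as the filter, 0.1 as the pseudocount, limma without trend and robust estimation, rounding to 1 decimal, leaving out each library, and leaving out normal libraries 1 and 2 together. Positions and exon lengths came from GENCODE M1 (mm9) by symbol; exon length was known for 24904 features.

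The 10 factors, 6 lists of 71 partners and targets and 10 marker lists were chosen with earlier results of these data known; some genes of these lists are not reported here. Genes named are the factors, 11 paralogs, and up to 4 called genes with the largest change per list; others were chosen after their values were seen. Steps between values allowed a depth estimate for every library. Estimated read numbers are given for Hoxa9 and Meis1 alone.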

Additional observations from a re-analysis of the deposited data

How the results depend on the processing

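Over all genes the test gave 1959 higher and 1196 lower; leaving out 1 library gave 326 to 2757 higher and 348 to 2142 lower. Among the 10 factors leaving out 1 library gave 1 to 3 higher and 0 to 2 lower, and among the 71 partner and target genes 9 to 13 higher (13 with all libraries) and 2 to 15 lower (5 with all libraries, and 3 with no filter on low values). The 2 was without AML library 2 and the 15 without normal library 3. Without normal libraries 1 and 2 together there were 864 higher and 471 lower genes, 0 lower factors and 1 lower partner or target; Pbx3 and Tal1 were under the filter there. With a filter at 5 RPKM 0 factors were lower, since Pbx3 and Tal1 were then not tested. Among the tested genes that were refitted, log2 fold changes that changed sign were those of Erg (-0.32 without AML library 1), Fli1 (-0.0084 under quantile normalization), Pbx2 and Gata1, none of them called in any fit. The difference of Gata3, which was under the filter, went from 0.023 to -0.046 without AML library 2. Leaving out 1 library gave -0.32 to 1.06 for Erg, -0.17 to 0.33 for Pbx2 and -0.28 to 0.16 for Gata1. For Pbx2 values were -0.018 under upper quartile scaling, -0.047 under quantile normalization, -0.046 without normal library 1, -0.024 without normal library 2, -0.17 without AML library 2 and -0.39 without normal libraries 1 and 2 together. For Gata1 they were 0.16 without normal library 1, 0.062 without AML library 2 and 0.43 without normal libraries 1 and 2 together. The cause was not tested. The calls of Lmo2, Hoxb4, Lmo1, Gfi1, Flt3, Elane, Mpo and Csf1r held in every alternative fit that tested them. With 1 AML library left out, the other is assumed to vary like the normal libraries. No paired analysis was possible because the groups share no 2 replicate numbers in the titles. The pseudocount of 0.1 moved the untested differences of Hoxa9, Meis1 and Gata2 to -1.03, -2.50 and -2.77.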
